A study of Mus musculus with 24 samples.

Results

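The expression of 10 genes of lytic cell death (Ripk1, Ripk3, Mlkl, Zbp1, Casp1, Casp4, Gsdmd, Gsdme, Ninj1 and Aifm1) was measured by RNA-seq in 6 mouse small cell lung cancer (SCLC) cell lines before and after p53 was restored. The genes were chosen by symbol as a named list of necroptosis, pyroptosis and membrane rupture genes, and all 10 were found among the 25239 gene symbols of the table. The lines came from tumours of mice homozygous for floxed Rb1 and Rbl2 (flox/flox) and for the Trp53 XTR gene trap (XTR/XTR), with Rosa26 FlpO-ER, that had received adenoviral CMV-Cre in the lung, so every group carried the Cre-recombined Rb1 and Rbl2 alleles and differed only in line, in p53 state and in drug. Type D lines (4711-1, 4711-18 and 4716-11) lose viability after p53 restoration and Type V lines (4711-11, 4716-10 and 4716-14) stay viable, and each type was defined by 3 lines, so a difference between types is a difference between 3 lines and 3 other lines. Each line gave 4 libraries at 72 h: vehicle with p53 held off (Control), 4-hydroxytamoxifen, which activates FlpO-ER and releases the Trp53 gene trap (Restored), and each of these with cyclosporin A (Control + CsA, Restored + CsA), an inhibitor of the cyclophilins. This made 8 groups of 3 libraries, 24 in all.

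Necroptosis runs from a sensor or receptor to a kinase pair and on to a pore. RIPK1, below the TNF receptor, or ZBP1, a sensor of Z-form nucleic acid, engages RIPK3, which phosphorylates MLKL, and MLKL then permeabilises the plasma membrane. Pyroptosis runs through the inflammatory caspases CASP1 and CASP4 (caspase-11 in the mouse, a sensor of cytosolic lipopolysaccharide), which cleave gasdermin D into its pore-forming fragment. Gasdermin E is cleaved by caspase-3, NINJ1 clusters in the plasma membrane and breaks it open late in lytic death, and AIFM1 is a mitochondrial flavoprotein that moves to the nucleus in parthanatos. These are largely switches at the level of the protein, which RNA does not report.

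Values were TPM, transcript abundances scaled by transcript length and to the same total in every library. They can be compared between genes, and their read depth is unknown. Trp53 itself checked the labels: it lay at 10.5 to 15.3 TPM in the 12 libraries without restoration and at 181 to 253 TPM in the 12 with it. Neuroendocrine markers of the labelled cell type were low. Of 7 such markers, 3 stayed under 1 TPM in all 12 Type D libraries and 2 in all 12 Type V libraries, and the sum of the 7 was 5.50 to 27.1 TPM in Type D and 16.2 to 85.7 TPM in Type V. The types also differed in markers of other cell types. A list of 4 epithelial genes summed to 4425 to 11816 TPM in Type D and 490.3 to 1577 TPM in Type V, and a list of 5 fibroblast genes to 0.283 to 1.93 TPM in Type D and 17.9 to 521 TPM in Type V. These sums rest on part of each list. Epcam did not exceed 4.57 TPM in any library, nor did the fibroblast genes Pdgfra and Lum exceed 3.37 and 0.844 TPM. A list of 15 leukocyte genes summed to 109 to 362 TPM in Type D and 31.2 to 176 TPM in Type V. Of these, Tyrobp, C1qa and Cd3e were listed at 0 in every library and Ptprc stayed at or under 0.154 TPM, while Cd14 reached 355 TPM in Type D. A list of 4 endothelial genes did not exceed 0.615 TPM in sum. The part of these marker differences in the differences between types given next was not tested. Fewer cells that express a gene and less RNA per cell cannot be told apart in these bulk libraries.

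In Control, every Type D line had more Gsdmd, Gsdme and Ninj1 transcript than any Type V line, Casp4 was above 1 TPM in the 3 Type V lines alone, and Casp1 in 2 of them. Gsdmd was the most abundant of the 10 in Type D at 253 ± 51.6 TPM (SD, n = 3), followed by Ninj1 at 145 ± 23.9 and Aifm1 at 125 ± 37.1, whose ranges overlapped. Mlkl (52.5 ± 13.2 TPM), Gsdme (42.5 ± 19.9) and Ripk1 (40.7 ± 4.31) formed a middle tier, each overlapping with its neighbour in that order. Ripk3 (2.45 ± 1.15 TPM) stood apart below them, and Casp4, Zbp1 and Casp1 had mean levels of 0.372, 0.157 and 0 TPM. In Type V Control the order was another one. Aifm1 led at 138 ± 24.004 TPM, and Ninj1 (65.5 ± 14.1), Gsdmd (60.4 ± 53.7), Mlkl (58.9 ± 19.9) and Ripk1 (49.9 ± 5.53) followed with ranges that overlapped from each to the next. Below these came Casp1 (20.4 ± 22.7 TPM), Casp4 (14.5 ± 12.1), Ripk3 (9.27 ± 15.9), Gsdme (5.10 ± 4.85) and Zbp1 (0.773 ± 0.930), again each overlapping with the next, because single lines set most of these means.

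**Figure D1:**
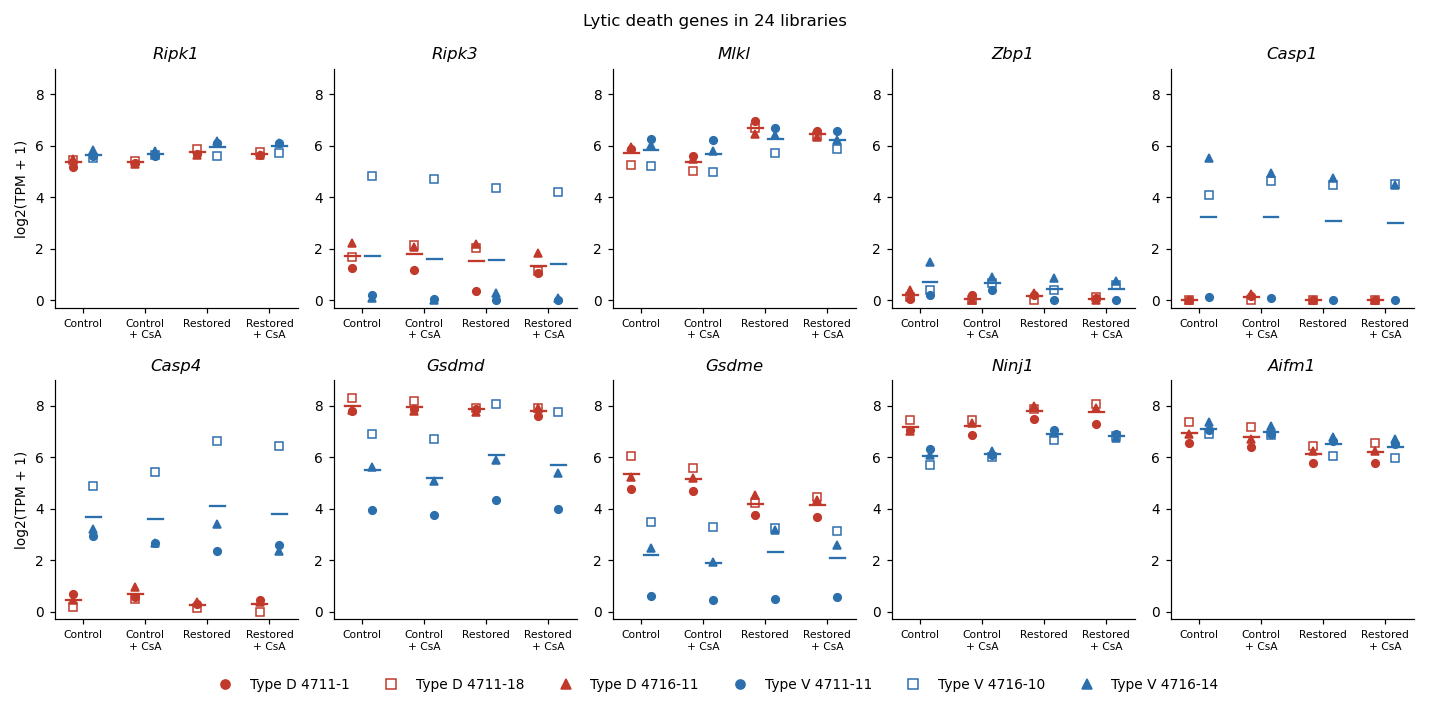
TPM of the 10 genes on a log2(TPM + 1) scale in the 24 libraries, 1 panel per gene with the 4 treatments on the x axis; red symbols are Type D lines, blue symbols Type V lines, 1 symbol shape per line of a type, and bars are means of 3 lines. Casp1 and Casp4 lie near 0 in Type D, Gsdme and Ninj1 lie higher in Type D at every treatment, and Ripk3 is high in 4716-10 alone.

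The question of whether the types already differed before p53 came back was put by comparing Type D with Type V in Control. Of the 9 genes that passed the filter on low values (at least 1 TPM in at least 3 libraries, 14104 genes), 3 were called, where a call means a Benjamini-Hochberg adjusted p under 0.05 over all 14104 genes and a difference of at least 1 on the log2(TPM + 1) scale in limma. Gsdme and Ninj1 were higher in Type D and Casp4, which passed the filter only through Type V libraries, was lower. Over all genes 8.83% were called. Cell line was also used as a block, since the 4 libraries of a line belong together. Between types the block was fitted as a correlation within lines, common to all genes. With it 5 of the 9 were called (11.3% of all genes), Gsdmd as higher and Casp1 as lower joining them. The types hold different lines, so the block adds no pairing to this comparison, and calls that need it are tentative. TPM ranges of the types did not overlap for 6 of the 10, with Gsdmd, Gsdme and Ninj1 above and Ripk1, Casp1 and Casp4 below in Type D, where 31.4% of all genes did not overlap. The median difference of the 9 was -0.13 on the log2 scale and that of all genes -0.12.

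Gsdme was at 26.2, 64.8 and 36.6 TPM in the Control libraries of 4711-1, 4711-18 and 4716-11 (Type D). Those of 4711-11, 4716-10 and 4716-14 (Type V) had 0.524, 10.2 and 4.59 TPM. Values for 3 lines are given in this order throughout. Every Type D line lay above every Type V line, and the difference was 3.15 ± 0.83 (SE) on the log2 scale (limma adjusted p = 0.0153, with the cell line block 0.00068). Ninj1 was at 132, 172 and 130.1 TPM in Type D Control against 78.8, 50.6 and 67.0 TPM in Type V Control. Its difference, 1.14 ± 0.21 on the log2 scale, or 2.21-fold (limma adjusted p = 0.0011), was the steadiest of the 3: it stayed under 0.05 with each line left out in turn. Gsdme was not called without 4711-1, 4711-18, 4716-11 or 4716-14 (limma adjusted p = 0.0535, 0.0867, 0.0786 and 0.0555), and with the 6 Control libraries alone its adjusted p was 0.0789. Gsdmd was at 219, 313 and 228 TPM in Type D Control, a narrow range, while Type V Control spread over 14.3, 119 and 47.6 TPM. It differed by 2.49 ± 0.92 on the log2 scale (limma adjusted p = 0.0806, with the block 0.0049). Gsdmd and Gsdme followed the same order of lines within each type, with 4711-18 highest in Type D and 4716-10 highest and 4711-11 lowest in Type V, and over the 24 libraries they correlated at Pearson r = 0.926. That value is a description, since the 24 points are 6 lines with 4 libraries each and carry the difference between types.

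The caspases had the opposite pattern. Casp1 and Casp4 passed the filter through Type V libraries alone. No Type D library exceeded 0.9485 TPM for Casp4 or 0.201 TPM for Casp1. Their being lower in Type D was thus partly set by the filter, at every treatment, which limits what their calls mean. Casp1 was listed at 0 in all Type D libraries of Control, Restored and Restored + CsA and reached 0.201 TPM in Control + CsA. In Type V Control it was at 0.106, 16.3 and 44.8 TPM, so 4711-11 resembled the Type D lines and the other 2 lines expressed it. The fitted difference of -3.26 ± 1.44 on the log2 scale had a limma adjusted p of 0.151, and 0.0121 with the block. Casp4 was at 0.608, 0.133 and 0.373 TPM in Type D Control, whereas the Type V lines had 6.76, 28.5 and 8.29 TPM, so that all 3 Type V lines expressed it and no Type D line did above 1 TPM. The difference was -3.24 ± 1.01 on the log2(TPM + 1) scale (limma adjusted p = 0.0399, with the block 0.0081). This call was lost without 4711-1, 4711-18, 4716-11 or 4716-14 (Casp4 adjusted p = 0.144, 0.129, 0.154 and 0.0777), after quantile normalisation (0.0612) and after median-ratio scaling (0.0516). Casp1 and Casp4 are neighbours on mouse chromosome 9, at chr9:5298517-5307265 and chr9:5308828-5336783 on the plus strand of GRCm38 (GENCODE M21), and correlated at r = 0.775 over the 24 libraries.

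None of the necroptosis genes passed the test between types in Control. Ripk3 was high in a single line: in 4716-10, a Type V line, it was at 27.6 TPM in Control and at 25.4, 19.7 and 17.3 TPM in Control + CsA, Restored and Restored + CsA. In the other 2 Type V lines it did not pass 0.221 TPM in any library, and in the Type D lines it lay between 0.298 and 3.69 TPM. The highest and the lowest Ripk3 levels both belonged to Type V lines. The mean difference between types in Control was 0.02 on the log2 scale with a 95% confidence interval of -2.955 to 2.999, too wide to say that the types are alike. Mlkl was at 58.5, 37.4 and 61.7 TPM in Type D Control and 75.02, 36.7 and 65.0 TPM in Type V Control, ranges that overlapped (difference -0.13, 95% confidence interval -0.81 to 0.55). Ripk1 was at 35.7, 42.8 and 43.4 TPM in Type D Control and 48.2, 45.3 and 56.0 TPM in Type V Control. These ranges did not overlap, but the difference of -0.29 ± 0.15 on the log2 scale did not pass the test (limma adjusted p = 0.236). Aifm1 differed by -0.17 on the log2 scale (limma adjusted p = 0.734). Zbp1 did not pass the filter and was not tested. It was highest at 1.84 TPM in 4716-14 Control and did not exceed 0.331 TPM in any Type D library.

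After restoration the fitted differences of both gasdermins between the types were smaller than in Control, and that of Casp4 was not. Casp4 was called lower in Type D in Restored (-3.83 ± 1.01, limma adjusted p = 0.0152), 1 of the 9 against 9.44% of all genes. Ninj1 was higher by 0.90 ± 0.21 on the log2 scale (limma adjusted p = 0.0071), short of the 1 that a call needs. Gsdme (1.87, limma adjusted p = 0.138) and Gsdmd (1.76, 0.211) were not called unless the block was used, which gave adjusted p = 0.0310 for Gsdme, 0.0402 for Gsdmd and 0.0174 for Casp1, and 4 calls among the 9 against 11.3% of all genes. Without 4716-10 the differences of Gsdmd and Gsdme were 2.74 and 2.35 (limma adjusted p = 0.0021 and 0.0467), and without 4711-11 that of Casp1 was -4.62 (limma adjusted p = 1.1e-07). Casp4 was not called without 4711-1, 4711-18 or 4716-11 (adjusted p = 0.0882, 0.0668 and 0.0719). In Restored + CsA the same gene, Casp4, was the only one called (-3.50 ± 1.01, limma adjusted p = 0.0289, with 7.82% of all genes called), and with the block 4 of the 9 were (9.85% of all genes). The Casp4 call in Restored + CsA was lost without 4711-1, 4711-18 or 4716-11 (adjusted p = 0.123, 0.112 and 0.123), and without 4716-10 the difference was -2.18. The fits of the 6 libraries compared alone gave Casp4 an adjusted p of 0.106 in Restored and 0.122 in Restored + CsA.

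**Figure D2:**
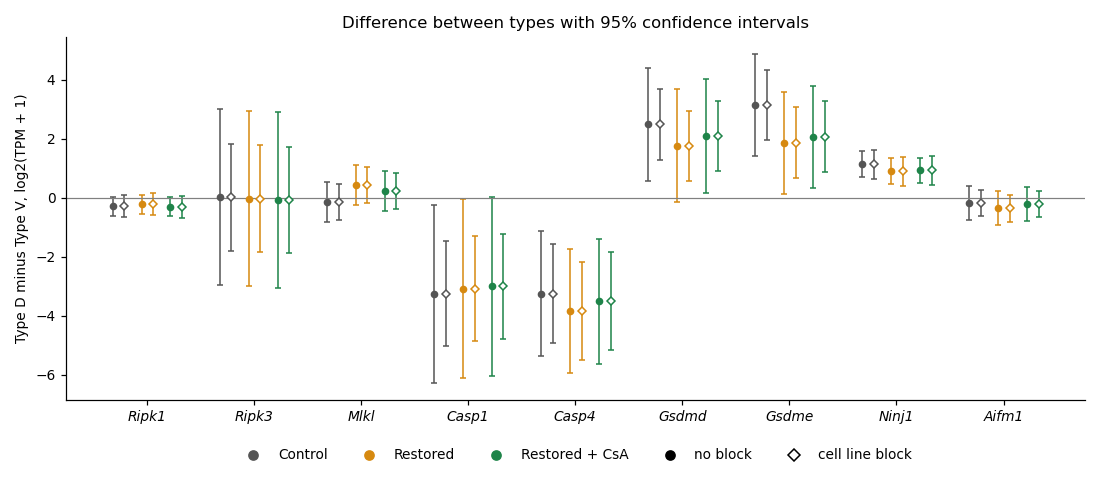
Difference between Type D and Type V on the log2(TPM + 1) scale (y axis) for the 9 genes tested (x axis) in Control, Restored and Restored + CsA, as fitted differences with 95% confidence intervals from limma without a block (filled circles) and with the cell line block (open diamonds). Intervals of Ninj1, Gsdme, Gsdmd, Casp4 and Casp1 in Control leave out 0 in both fits, and those of Ripk3 span it widely.

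After p53 restoration Ripk1, Mlkl and Ninj1 were higher and Aifm1 lower in each of the 6 lines, changes of a kind that many genes of these lines showed. In Type D, 1 of the 9 genes was called in Restored against Control without the block, where 6.93% of all genes were called, and 2 with the block (11.2% of all genes). With the block, 5 of the 9 had an adjusted p under 0.05: Ripk1, Mlkl and Ninj1 rose and Aifm1 and Gsdme fell. That share has to be read against 45.3% of all 14104 genes. In Type V, none of the 9 was called by limma without the block (5.29% of all genes were called), and none with the block (8.66% of all genes). Without the block 2 of the 9 had an unadjusted p under 0.05 in limma, as did 3117 of all 14104 genes. By the blocked adjusted p alone, Ripk1, Mlkl, Ninj1 and Gsdmd rose and Aifm1 fell in Type V, 5 of the 9 against 40.6% of all genes. Over the same libraries Cd14 lay at 202 to 355 TPM without and 78.8 to 107 TPM with restoration in Type D, and Cd68 at 5.60 to 11.5 and 25.8 to 55.3 TPM. In Type V, Cd68 lay at 6.86 to 11.003 TPM without and 16.1 to 31.3 TPM with restoration, the fibroblast marker Col1a2 at 18.97 to 194 and 6.36 to 13.1 TPM, and the neuroendocrine marker Uchl1 at 18.9 to 40.9 and 3.12 to 8.33 TPM. Other markers of these lists had overlapping ranges in Type V. The fibroblast marker Dcn lay at 18.8 to 62.1 TPM without and 3.52 to 71.9 TPM with restoration. Among neuroendocrine markers, Insm1 lay at 1.13 to 18.1 and 2.21 to 49.6 TPM, and Ncam1 at 11.2 to 21.1 and 7.18 to 27.3 TPM. The part of these markers in the results was not tested.

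Mlkl went from 58.5, 37.4 and 61.7 TPM to 126, 103 and 86.2 TPM in 4711-1, 4711-18 and 4716-11, a ratio of 2.15, 2.76 and 1.40. The ranges in Type D did not overlap, and the mean change was 1.00 ± 0.32 on the log2 scale (limma adjusted p = 0.0488, with the block 4.0e-05). The call lay on the edge of both limits: the change was 0.90 after quantile normalisation and after median-ratio scaling (adjusted p = 0.0653 and 0.0580), the 6 libraries of the comparison alone gave an adjusted p of 0.0645, and without 4711-1, 4711-18, 4716-11 or 4716-14 the Mlkl adjusted p was 0.249, 0.359, 0.109 and 0.0888. With the block the change was 0.78 to 1.26 over the lines left out and its adjusted p stayed under 0.05. In Type V, Mlkl went from 75.02, 36.7 and 65.0 TPM to 102, 51.1 and 85.1 TPM, ratios of 1.37, 1.39 and 1.31. That rise of 0.43 on the log2 scale passed with the block (limma adjusted p = 0.0225, without it 0.503) but not once any Type V line was left out (adjusted p = 0.104, 0.0846 and 0.0774). The change was thus larger in Type D by 0.57 on the log2 scale (95% confidence interval 0.14 to 0.99 with the block), which did not pass in either fit (adjusted p = 0.106 with the block, 1 without it).

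Ninj1 rose in all 6 lines. In Type D it went from 132, 172 and 130.1 to 178, 231 and 255 TPM. The Type V lines had 78.8, 50.6 and 67.0 TPM before and 132, 99.4 and 122 TPM after. The Restored and Control ranges did not overlap in either type, and 4711-11 after restoration lay within the range of the Type D lines before it. The change was 0.61 ± 0.21 in Type D (limma adjusted p = 0.0644, with the block 0.00095) and 0.85 ± 0.21 in Type V (0.0121, with the block 6.5e-05), and leaving out any line did not lift the blocked adjusted p over 0.05. Without the block the Type V value was lost without 4711-11, 4716-10 or 4716-14 (adjusted p = 0.0607, 0.0726 and 0.0965). Aifm1 moved the other way in all 6 lines. The Type D lines had 91.6, 165 and 118 TPM before and 53.3, 84.4 and 73.9 TPM after, and the Type V lines 133, 117 and 164 TPM before and 99.1, 65.6 and 109 TPM after. The changes were -0.80 ± 0.28 in Type D and -0.61 ± 0.28 in Type V (limma adjusted p = 0.0649 and 0.192, with the block 6.3e-06 and 9.2e-05). Ripk1 rose least: 0.37 on the log2 scale in Type D and 0.30 in Type V (with the block, limma adjusted p = 0.0048 and 0.0199). Its 4716-10 libraries were nearly level, at 45.3 TPM before and 47.1 TPM after. The Ripk1 rise in Type D did not pass without 4711-1 or 4711-18 (adjusted p = 0.0677 and 0.0605), nor that in Type V without 4711-11 or 4716-14 (0.176 and 0.123).

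Gsdme was the only member whose response to restoration differed between the types by the test, and only with the block. It went from 26.2, 64.8 and 36.6 TPM to 12.6, 17.5 and 22.02 TPM in the Type D lines, ratios of 0.482, 0.271 and 0.602, and the ranges did not overlap. In the Type V lines it went from 0.524, 10.2 and 4.59 TPM to 0.391, 8.62 and 7.95 TPM, with 2 lines slightly lower and 4716-14 higher. The fall in Type D was -1.18 ± 0.21 on the log2 scale with the block (limma adjusted p = 0.00034, without it 0.421), and it stayed under 0.05 with any line left out, at -0.85 to -1.41. The Type V change was 0.11 (95% confidence interval with the block -0.34 to 0.56). Starting at 0.524 TPM, 4711-11 had little room to fall on the log2(TPM + 1) scale, which limits the comparison of the responses. The difference of the 2 responses was -1.29 ± 0.30 with the block (limma adjusted p = 0.0223, 95% confidence interval -1.93 to -0.65), the single call among the 9 genes, where 2.44% of all genes were called. Without the block no member was called and none had an unadjusted p under 0.05 (0.0284% of all genes called). In the blocked fit the adjusted p of the Gsdme difference rose to 0.0904 without 4711-1, 0.144 without 4711-18, 0.0535 without 4711-11 and 0.0588 without 4716-14, with differences of -0.96 to -1.52.

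The other pyroptosis genes moved by amounts that differed between lines. Gsdmd stayed at 216 to 239.6 TPM in Type D Restored, against 219 to 313 TPM in Control, and its change was -0.12 (95% confidence interval with the block -0.47 to 0.23). In Type V it went from 14.3, 119 and 47.6 TPM to 19.2, 264 and 57.9 TPM. All 3 lines were higher, 4716-10 by 2.21-fold, and the rise of 0.61 passed with the block (limma adjusted p = 0.0081) but not without 4716-10 (0.34, adjusted p = 0.0566). Casp4 went from 6.76, 28.5 and 8.29 TPM to 4.06, 97.1 and 9.49 TPM in Type V, so 4716-10 more than tripled while 4711-11 was lower. Its mean change of 0.43 did not pass (limma adjusted p = 0.342 with the block and 0.893 without it), and without 4716-10 the difference of its responses turned from -0.59 to 0.06. Casp1 went from 0.106, 16.3 and 44.8 TPM to 0, 21.4 and 26.2 TPM in Type V, without a common direction. Ripk3 changed by -0.21 in Type D and -0.16 in Type V (limma adjusted p = 0.501 and 0.621 with the block).

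**Figure D3:**
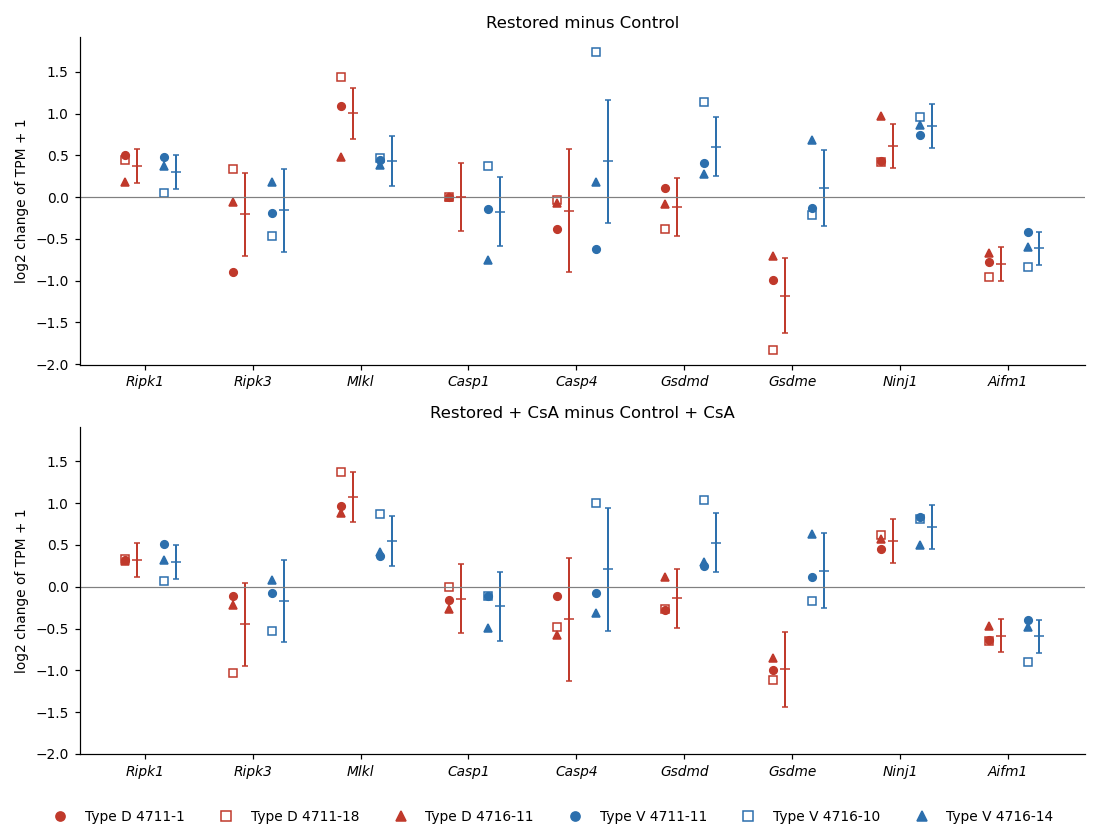
Change on the log2(TPM + 1) scale (y axis) from Control to Restored (top) and from Control + CsA to Restored + CsA (bottom) in each line for the 9 genes tested; symbols are lines, red for Type D and blue for Type V, and horizontal marks with bars are means with 95% confidence intervals from limma with the cell line block. Ripk1, Mlkl and Ninj1 are above 0 and Aifm1 below 0 in all 6 lines in both panels, and Gsdme is below 0 in the 3 Type D lines.

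The 4 genes that changed in the same direction in both types, Ripk1, Mlkl, Ninj1 and Aifm1, are shown here with the 250 bases before each start site annotated by RefSeq (GRCm38.p6), 5′ to 3′ on the strand of the gene. Capitals mark CATG, the centre of one form of the p53 half-site, and the interferon-gamma-activated sequence TTCNNNGAA.
Ripk1 first window, chr13:34002113-34002362, plus strand: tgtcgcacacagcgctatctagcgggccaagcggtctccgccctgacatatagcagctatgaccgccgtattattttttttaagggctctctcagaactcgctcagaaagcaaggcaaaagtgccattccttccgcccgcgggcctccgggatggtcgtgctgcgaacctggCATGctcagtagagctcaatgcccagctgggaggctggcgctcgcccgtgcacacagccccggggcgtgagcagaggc
Ripk1 second window, chr13:34002624-34002873, plus strand: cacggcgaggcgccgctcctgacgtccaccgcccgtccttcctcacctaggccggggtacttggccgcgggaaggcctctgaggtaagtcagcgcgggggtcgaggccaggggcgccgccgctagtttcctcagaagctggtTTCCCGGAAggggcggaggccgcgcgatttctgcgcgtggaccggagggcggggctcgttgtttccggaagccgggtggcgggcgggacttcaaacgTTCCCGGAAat
Mlkl, chr8:111338206-111338455, minus strand: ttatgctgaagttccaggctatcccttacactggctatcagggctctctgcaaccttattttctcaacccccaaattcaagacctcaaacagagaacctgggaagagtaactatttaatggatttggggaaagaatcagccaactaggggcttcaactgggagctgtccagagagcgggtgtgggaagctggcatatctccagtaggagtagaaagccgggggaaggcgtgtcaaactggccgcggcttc
Ninj1, chr13:49187279-49187528, plus strand: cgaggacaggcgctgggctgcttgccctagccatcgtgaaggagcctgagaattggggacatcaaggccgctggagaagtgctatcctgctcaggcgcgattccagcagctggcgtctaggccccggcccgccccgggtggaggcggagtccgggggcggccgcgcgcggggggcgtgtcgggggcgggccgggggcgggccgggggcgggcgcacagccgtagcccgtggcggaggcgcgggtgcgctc
Aifm1, chrX:48513564-48513813, minus strand: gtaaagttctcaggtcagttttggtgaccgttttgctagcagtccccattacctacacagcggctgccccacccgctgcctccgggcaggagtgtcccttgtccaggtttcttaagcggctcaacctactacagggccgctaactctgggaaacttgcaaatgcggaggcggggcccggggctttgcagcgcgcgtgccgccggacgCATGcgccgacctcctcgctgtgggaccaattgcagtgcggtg

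No window held a p53 half-site on either strand, a match found in 7.13% of the 32851 RefSeq windows of 250 bases, nor a pair of half-sites, found in 0.0639%. CATG lay at positions -78 to -75 of the first Ripk1 window and -43 to -40 of the Aifm1 window, and 53.9% of all windows held it. The TTCNNNGAA motif lay in the second Ripk1 window at -108 to -100 and at -11 to -3, both times as TTCCCGGAA, and 7.02% of all windows held it. GAAANNGAAA and TATAAA were in none of these windows (2.98% and 12.4% of all windows). The search covered both strands. Ripk1 lies at chr13:34002363-34037147 on the plus strand of GRCm38 and overlaps Serpinb6a on the other strand, Mlkl at chr8:111311797-111338177 on the minus strand, Ninj1 at chr13:49187485-49196244 on the plus strand and Aifm1 at chrX:48474944-48513563 on the minus strand. Gsdme, at chr6:50188888-50263862 on the minus strand, overlaps Mpp6 on the other strand. The libraries came from a kit that keeps strand, and how strand was used in the quantification is not given in the sources used here.

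Cyclosporin A did not call any of these genes. In Control + CsA against Control and in Restored + CsA against Restored, 0 of the 9 were called in either type, and none had an unadjusted p under 0.05 in limma without the block. Over all genes 0% were called in 3 of these 4 comparisons and 0.0142% in Restored + CsA against Restored of Type D. With the block 0 of the 9 were called, against 0.0142% and 0.128% of all genes in Control + CsA and Restored + CsA of Type D and 0% in both of Type V. In each of 2 comparisons, where 953 and 633 of the 14104 genes had an unadjusted p under 0.05, 1 of the 9 genes did. These were Mlkl in Type D Control + CsA, which lay at 48.0, 31.4 and 43.6 TPM against 58.5, 37.4 and 61.7 TPM without CsA (-0.34, 95% confidence interval -0.64 to -0.04, limma adjusted p = 0.680), and Gsdmd in Type V Restored + CsA, at 14.9, 216 and 40.8 TPM against 19.2, 264 and 57.9 TPM (-0.37, 95% confidence interval -0.72 to -0.02, adjusted p = 1). Mlkl was also lower with CsA in each Type D line after restoration, at 94.8, 83.2 and 81.0 TPM against 126, 103 and 86.2 TPM. It was likewise lower in all 3 Type V lines in Control + CsA, and in 2 of them in Restored + CsA. Gsdmd and Aifm1 were lower with CsA in all 3 Type V lines in both comparisons. The differences of the 9 genes with and without CsA lay between -0.37 and 0.23 on the log2 scale in the 4 comparisons.

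**Figure D4:**
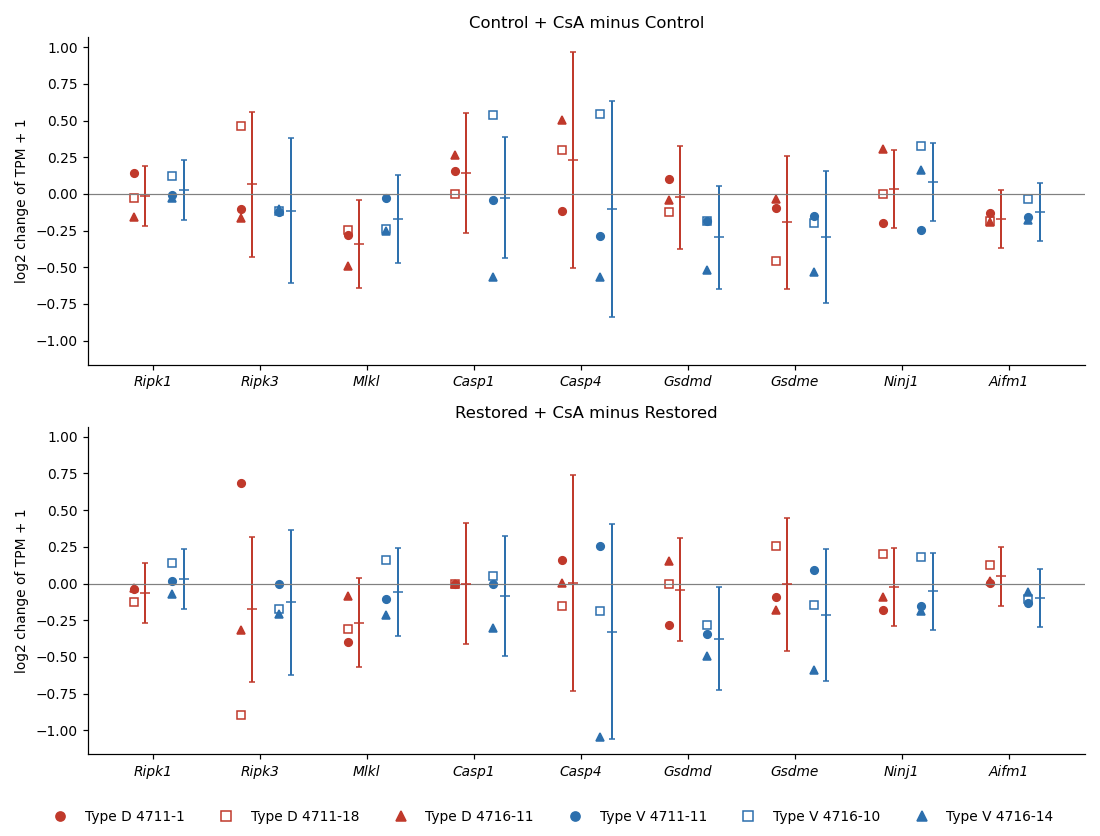
Change on the log2(TPM + 1) scale (y axis) with CsA in each line, in Control (top) and in Restored (bottom), for the 9 genes tested; symbols are lines, red for Type D and blue for Type V, and horizontal marks with bars are means with 95% confidence intervals from limma with the cell line block. Mlkl lies below 0 in the 3 Type D lines in both panels, as do Gsdmd and Aifm1 in the 3 Type V lines. No gene was called.

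Restoration was also measured with CsA present, in other libraries of the same 6 lines. All 24 libraries shared an estimate of the spread in the fit, so this is not an independent repeat. Mlkl rose by 1.07 in Type D (limma adjusted p = 0.0444, with the block 2.5e-05), from 48.0, 31.4 and 43.6 to 94.8, 83.2 and 81.0 TPM, 1 of the 9 called against 5.41% of all genes, and again 1 with the block (9.69%). The call was lost after quantile normalisation and median-ratio scaling and without 4711-1, 4711-18, 4716-11 or 4716-14. Mlkl was also higher in all 3 Type V lines, from 73.6, 30.9 and 54.3 to 95.1, 57.2 and 73.1 TPM. That mean change was 0.55 on the log2 scale. Ninj1 rose by 0.55 in Type D and 0.72 in Type V (with the block, limma adjusted p = 0.0024 and 0.00035) and Aifm1 fell by 0.58 and 0.59 on the log2 scale (0.00015 and 0.00016). Gsdme fell by 0.99 in Type D (with the block, limma adjusted p = 0.0016, without it 0.562) and lay 0.19 higher in Type V (0.514 with the block). In Type V none of the 9 was called (4.61% of all genes were called), and none with the block (7.97%). Without the block 2 of the 9 had an unadjusted p under 0.05 in limma, as did 2747 of all 14104 genes.

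The other genes of these pathways were followed as 5 lists. For necroptosis, 32 of 33 genes passed the filter. Itpk1, an inositol phosphate kinase needed for MLKL activation, was the only one called between the types in Control (43.1 ± 5.84 TPM in Type D, 18.7 ± 6.53 in Type V, difference 1.21, limma adjusted p = 0.0211), 1 of 32 against 8.83% of all genes. With the block Birc2, an inhibitor of apoptosis that ubiquitinates RIPK1, was called lower in Type D as well (-1.43, adjusted p = 0.0323). After restoration of Type D, Cyld, the deubiquitinase that acts on RIPK1, rose from 36.1 ± 7.08 to 78.2 ± 4.77 TPM (1.11, limma adjusted p = 0.04995), the only call of 32, where 6.93% of all genes were called. In Type V the means were 55.8 ± 19.3 and 96.0 ± 45.3 TPM and no gene of the list was called. Ikbkg (NEMO) was called with the block in both types, at 1.02 and 1.01. The median change of the list was 0.24 in Type D, where that of all genes was 0.07, and 0.11 in Type V, where that of all genes was 0.05.

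Of the 41 genes of the pyroptosis list 40 were in the table and 21 passed the filter, of which 3 were called higher and 5 lower in Type D Control, 7 of these being described here, where 8.83% of all genes were called in either direction. Inflammasome sensors were on the Type D side: Nlrc4 was at 18.4 ± 12.6 TPM in Type D and 0.0873 ± 0.0049 in Type V (3.87, limma adjusted p = 0.0012), Aim2, a sensor of cytosolic DNA, at 20.0 ± 12.1 and 0.341 ± 0.314 TPM (3.74, 0.0031), and Naip2, the NLRC4 partner that binds bacterial rod protein, at 6.41 ± 4.44 and 0.700 ± 0.184 TPM (1.95, 0.0020). On the Type V side were, among others, Casp12, an endoplasmic reticulum caspase encoded next to the inflammatory caspases, at 101 ± 107 TPM against 0.166 ± 0.218 in Type D (-5.89, limma adjusted p = 0.00015), the interferon-induced GTPase Gbp2 (-2.95, 0.00077), and the serpins Serpinb9 (-2.29, 0.0018) and Serpinb6b (-1.15, 0.0128). The Type D lines thus held transcripts of Nlrc4, Aim2 and Gsdmd with Casp1 listed at 0 in Control, and 2 of the 3 Type V lines held Casp1 with Nlrc4 under 0.1 TPM in Control. The median difference of the 21 genes was -0.52 and that of all genes -0.12. Nlrc4 and Aim2 passed the filter only through Type D libraries and Casp12 only through Type V libraries. The direction of their differences was thus partly set by the filter.

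On restoration, 1 of the 21 tested genes of the pyroptosis list was called in each type. Over all genes 6.93% were called in Type D and 5.29% in Type V, and 8.83% between the types in Control, and the counts of the lists given next stand beside these shares. In Type V, Hmgb1, a nuclear protein released by lysed cells, fell from 37.3 ± 1.77 to 16.02 ± 0.756 TPM (-1.17, limma adjusted p = 0.00028). Its Type D means were 27.2 ± 4.81 and 13.2 ± 3.27 TPM, a change of -0.998 that was just short of the size a call needs. Of the 14 AIF and parthanatos genes none was called between types in Control and 1 was called on restoration in each type: H2ax, the histone whose phosphorylated form marks DNA breaks, fell from 134 ± 32.4 to 18.3 ± 1.73 TPM in Type D. In Type V its mean fell from 105 ± 21.5 to 34.6 ± 10.1 TPM (-2.78 and -1.60, limma adjusted p = 3.7e-07 and 0.00026). Of 16 tested genes of membrane rupture and repair none was called in these comparisons without the block, and with it only Chmp4c, an ESCRT-III subunit, in Type V (1.14). Of 21 tested interferon regulators, 1 was called higher (Ifngr1, 1.83) and 3 lower (Isg15, -3.07, Cgas, -2.48, and Ddx58, -1.52) in Type D Control, and on restoration 1 was called, Irf7 in Type V (1.14, from 0.970 ± 0.781 to 3.11 ± 0.417 TPM). Irf7 lay 0.94 higher in Type D, where its means were 1.04 ± 0.184 and 2.92 ± 0.517 TPM.

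**Figure D5:**
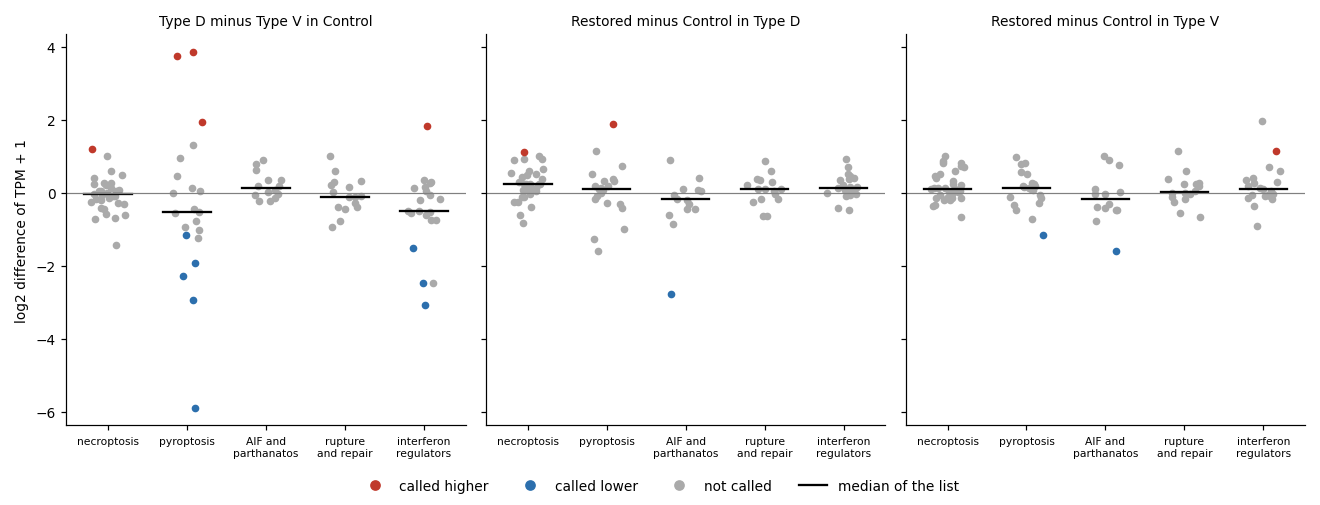
Difference on the log2(TPM + 1) scale (y axis) of each tested gene of the 5 lists (x axis) between types in Control (left) and on restoration in Type D (middle) and Type V (right); red points were called higher, blue points lower and grey points not called by limma without the block, and black bars are list medians. The pyroptosis list holds 3 red and 5 blue points between the types, and each list at most 1 called gene per type on restoration.

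Genes whose pattern over the 24 libraries was most like that of a member were ranked by Pearson r on log2(TPM + 1) among the 14104 genes. These are descriptions over 6 lines with 4 libraries each. Casp1 was followed most closely by Hoxb7 (r = 0.993) and Il18r1 (0.986), Gsdmd by Slco2a1 (0.971) and Mlph (0.970), and Gsdme by Nol4l (0.964) and Plekha6 (0.962). Casp4 was nearest to Gprc5c (0.964) and Wnt4 (0.962) and Ripk3 to Lcn2 (0.923) and Il1f6 (0.922). Akirin1 was nearest to Mlkl (0.927), Arhgef5 to Ninj1 (0.932), Calm2 to Aifm1 (0.941) and 4632427E13Rik to Ripk1 (0.940).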

How the data were processed

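RNA from 6 mouse SCLC cell lines was sequenced as stranded poly(A) libraries (single-end, 75 bases). The authors deposited TPM values for 25239 gene symbols in 24 libraries, and each column sums to 1000000, so read depth is unknown and the precision of a low value cannot be given. Per library 11853 to 12651 genes reached 1 TPM. The study names kallisto and HISAT2, and per the labels the builds mm10 and GRCm39, and which of these made the table is not given in the sources used here. Differences in the fraction of reads lost to other genes or in transcript choice can move a TPM.

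Groups came from the labels. All 24 libraries were fitted in limma 3.58.1 (R 4.3.3) on log2(TPM + 1), 1 coefficient per group, for the 14104 genes with at least 1 TPM in at least 3 libraries, with a trended prior and Benjamini-Hochberg adjustment over all genes. The second fit used cell line as a block, as a fixed term within types and as a correlated random effect between types. Same-numbered libraries of a type are the same cell line by label: deviations from group means correlated at 0.599 to 0.929 within a line (36 pairs) and at -0.727 to 0.0438 between lines (96 pairs). Subtracting a mean of only 3 lines by itself pushes the values between lines below 0, so their negative sign carries no information. Replicates are lines. Without a block, p-values rest on a spread pooled over the 8 groups. There the 4 libraries of a line count as independent, although they correlate. With the fixed block, p-values rest on the spread left after line and group, pooled over both types. With 3 against 3 an exact permutation test cannot go under 0.1, so none is given. Named genes were all 10 members, the called genes of the lists and the 3 nearest genes by correlation, of which the first 1 or 2 are printed. Some genes of the lists are not reported here.

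The members and lists were chosen with earlier results of these data known. Positions came from GENCODE M21 and promoter windows from RefSeq, where 8 of 10 members matched. Other settings tried were 0.1 as pseudocount, testing every gene, a minimum of 5 TPM, quantile normalisation, median-ratio scaling, a fit of the compared groups alone, no fold minimum, the block, and each line left out. The block with each line left out, and with no fold minimum, were chosen after seeing the data. The fits were tested on simulated data. Figures were drawn with matplotlib 3.10.9.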

Additional observations from a re-analysis of the deposited data

Results flagged for a closer look

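The response of Gsdme to restoration differed between the types in the test of the difference itself, with the cell line block: -1.29 on the log2(TPM + 1) scale (limma adjusted p = 0.0223). All 3 Type D lines were lower after restoration, and of the Type V lines 2 were lower and 1 higher.

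Aifm1 with CsA after restoration was higher in all 3 Type D lines, by 0.0052 to 0.125 on the log2 scale, and lower in all 3 Type V lines. The means differed by 0.147. This difference was not tested, and the Type D changes were close to 0.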

How the results depend on the processing

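The count of members called was 3 in Control between types, 1 in Restored, 1 in Restored + CsA, 1 on restoration in Type D and 1 on restoration under CsA in Type D, and 0 in the other 7 comparisons. With the cell line block these 5 counts were 5, 4, 4, 2 and 1, the difference of the responses had 1 call, and the other 6 stayed at 0. With the block and no fold minimum (chosen after seeing the data) they were 5 in each of the 5, 5 on restoration in Type V with and without CsA, and 1 for the difference. With no fold minimum but no block, Restored and Restored + CsA between types had 2 and restoration in Type V had 1, with and without CsA. Many other genes also passed once the fold minimum was dropped. With the block and without CsA, restoration passed 45.3% of all genes for Type D lines and 40.6% for Type V lines. For the other counts with no fold minimum, no share of all genes is given here, so they cannot be weighed against one. The fit of the compared groups alone gave 0 for Restored and Restored + CsA between types and for restoration in Type D. Restoration in Type D also had 0 with a pseudocount of 0.1, no filter, quantile normalisation and median-ratio scaling, and under CsA 0 with no filter, quantile normalisation and median-ratio scaling. Leaving out 1 line gave 1 to 4 in Control, 0 to 3 in Restored and in Restored + CsA, and 0 to 1 on restoration in Type D with and without CsA. The cause of these changes was not tested. Calls on CsA stayed at 0 throughout.

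Of 36 single-gene results past the adjusted p in either fit, 504 values under alternatives were computed: 443 kept direction and side of the threshold, 24 newly passed it, 37 no longer did and 0 changed direction. Among 72 other results, 56 of 1008 values had the other sign. Median-ratio scaling moved the median of all genes between types in Control from -0.12 to -0.02, so differences there are relative to that shift. TPM gives no depth, so the precision of the levels under 1 TPM given above, and of differences that rest on them, is unknown.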
